A study of Mus musculus with 3 samples.

Results

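The sirtuins are a family of 7 mouse genes, Sirt1 to Sirt7, and all 7 were read on the arrays, by 13 probes, out of 23458 genes that the arrays named. Members were the probes whose RefSeq accession belongs to one of these symbols, so the rule itself reads no measured value, though the family was taken up with earlier results of these data known. Sirt4 had 3 probes, Sirt1, Sirt2, Sirt6 and Sirt7 had 2 each, and Sirt3 and Sirt5 had 1 each. All 13 probes were above background on each of the 3 arrays.

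Sirtuins are enzymes that remove acyl groups from lysines of other proteins and spend NAD+ in doing so, which ties them to the energy state of the cell. Sirt1, Sirt6 and Sirt7 work mainly in the nucleus, Sirt7 in the nucleolus, Sirt2 mainly in the cytoplasm, and Sirt3, Sirt4 and Sirt5 in the mitochondria. The family is known for its part in the response to oxidative stress, in DNA repair and in ageing, and oocytes and preimplantation embryos hold several of its members.

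The study asked how the age of the mother and the chemokine CXCL5, acting through its receptor CXCR2, bear on the gene expression of embryos. Superovulated ICR females were mated, zygotes were flushed from the oviducts 18 h after hCG, and embryos were grown in KSOM medium for 96 h to expanded blastocysts. The young group came from females of 3 to 6 weeks and the aging group from females of 43 to 53 weeks, both cultured without added agents. The suppressed aging group came from females of 43 to 53 weeks and was cultured with an anti-CXCL5 neutralizing antibody at 10 μg/ml together with a CXCR2 selective antagonist at 10 nM, so what each agent did cannot be told apart. RNA of 30 pooled blastocysts made 1 array in each group, with no replicates, so no test was possible and no difference below carries an error between embryos or mothers. In RNA from pooled embryos, fewer cells of a type and less RNA per cell cannot be told apart.

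Values below are levels, which are the log2 of the intensity minus the log2 of the array's 75th percentile, so 0 marks a probe at that percentile. Each probe was set only against itself on another array. A difference was called where it passed 2-fold, a log2 difference of 1. The spot error is that of the scanner software for the spots compared, and it ran from 0.20 to 0.41 over the sirtuin differences. The labelled tissue was checked on marker genes. All 8 trophectoderm markers and all 8 inner cell mass markers were above background on every array. Of 10 cumulus and granulosa cell markers, 6 were not above background on any array, namely Fshr, Has2, Tnfaip6, Ptx3, Inha and Lhcgr. The other 4, Amh, Foxl2, Cyp19a1 and Ptgs2, were above background on all 3 arrays. The summed level of that list, nearly all of it from its Foxl2 probe, was 406 in young, 374 in aging and 439 in suppressed aging, in units of the array's 75th percentile. Summed in the same way, the trophectoderm markers were at 504 in young, 382 in aging and 449 in suppressed aging, and the inner cell mass markers, most of whose sum was the Nanog probe, at 1022, 1232 and 1141. In aging against young, 2 of 8 trophectoderm markers were higher and 6 lower, 1 of them past 2-fold, with a median difference of -0.18. Of the 8 inner cell mass markers, 6 were higher and 2 lower, 3 higher and 1 lower past 2-fold, with a median of 0.66. In suppressed aging against aging the medians were 0.18 and -0.19, with 0 past 2-fold in either list. Some oocyte genes also differed between the groups. Of 7 compared of 10 listed, 3 were over 2-fold higher in aging than in young (median 0.39), bounds included. In suppressed aging against aging 3 were over 2-fold lower (median -0.73), bounds included. Those past 2-fold were Zp2, Zp3, Bmp15 and Gdf9, all at levels under 0. The brightest oocyte gene, H1f8, read 4.01, 4.02 and 3.95 on young, aging and suppressed aging. As background for these marker lists, 19.0% of all genes by their brightest probe were past 2-fold in aging against young. In suppressed aging against aging the share was 17.3%. The part of these marker shifts in the sirtuin values was not tested.

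The 250 bases ahead of the RefSeq transcription start (mouse build GRCm38.p6) are shown for 2 members, Sirt1 and Sirt2. Sirt1 was the member that moved least at all its probes. Sirt2 had the largest difference in suppressed aging against aging, at 1 of its 2 probes. Sirt1 lies at chr10:63339036-63339285 on the minus strand and Sirt2 at chr7:28766502-28766751 on the plus strand, each read 5′ to 3′ on the gene's strand. Capitals mark CG pairs.
Sirt1: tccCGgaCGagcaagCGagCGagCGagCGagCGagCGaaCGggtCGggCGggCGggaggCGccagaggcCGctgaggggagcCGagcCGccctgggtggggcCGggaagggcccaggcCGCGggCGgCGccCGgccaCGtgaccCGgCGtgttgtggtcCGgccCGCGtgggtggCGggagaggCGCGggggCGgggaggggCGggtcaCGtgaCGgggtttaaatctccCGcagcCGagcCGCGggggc
Sirt2: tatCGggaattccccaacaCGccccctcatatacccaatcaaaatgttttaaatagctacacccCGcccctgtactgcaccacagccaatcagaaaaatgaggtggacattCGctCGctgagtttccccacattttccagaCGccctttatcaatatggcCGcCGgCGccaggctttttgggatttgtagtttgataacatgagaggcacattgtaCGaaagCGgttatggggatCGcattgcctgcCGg
The Sirt1 window held 39 CG pairs and the Sirt2 window 13, against a median of 6 over 32851 mouse windows of the same length. CACGTG, which reads the same on both strands, occurred 2 times ahead of Sirt1 and in 6.02% of all windows. CCAAT, counted on either strand, occurred 2 times ahead of Sirt2 and in 33.9% of all windows. The windows of the other 5 members held 12 to 21 CG pairs. These are descriptions of letters, and no binding or methylation was measured.

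In aging against young blastocysts, 2 of 13 sirtuin probes were lower by over 2-fold and 0 were higher, and 21.1% of all 35758 probes compared were past 2-fold, 9.98% higher and 11.1% lower. All 13 sirtuin probes were measured on both arrays, and over the 30448 probes of which this holds the share past 2-fold was 16.6%, beside 15.4% of the sirtuin probes. One Sirt7 probe and one Sirt4 probe made up the count, and each had a probe of the same gene that stayed under 2-fold. By the brightest probe of each gene the median difference of the 7 members was -0.05, beside 0.03 over all genes.

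Sirt7, the nucleolar member known for its role in ribosomal RNA transcription, gave the largest difference of the family. Its brighter probe, A_51_P352264, had levels of 3.68 in young, 1.46 in aging and 1.64 in suppressed aging blastocysts. The young array stood alone, and the other 2 arrays lay within 0.17 of each other, which is less than the spot error of 0.20. The probe was 4.66-fold lower in aging than in young blastocysts, a log2 difference of -2.22 (spot error 0.20), and 4.14-fold lower in suppressed aging than in young. Of 2385 probes at a like level, meaning a mean level in the same step of 1 log2 unit, 0.839% were as far or farther down in aging. Its dimmer probe, A_55_P2045697, read -1.44 on young, -1.93 on aging and -1.66 on suppressed aging. That probe was also lowest on the aging array, but by a difference of -0.49 (spot error 0.22), or 1.40-fold. The gap of 1.73 between the differences of the 2 Sirt7 probes was matched or passed by 9.49% of the 4856 genes with 2 probes compared.

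**Figure D1:**
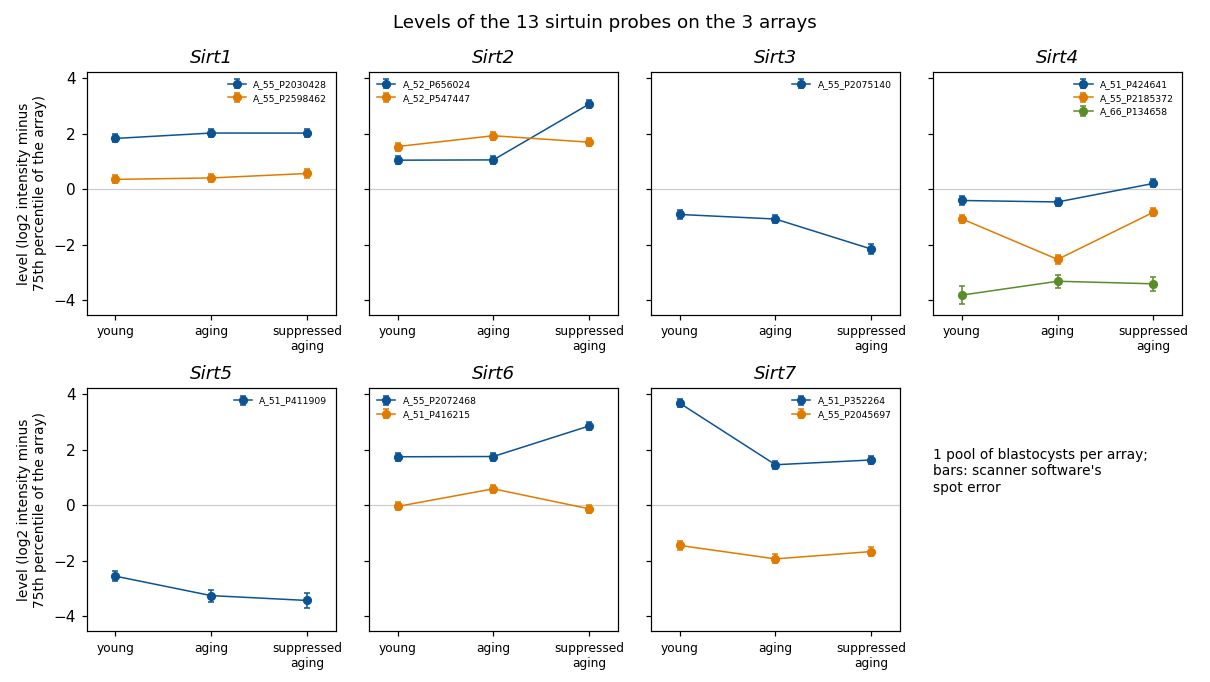
Level of each sirtuin probe (y axis, log2 intensity minus the 75th percentile of the array) on the young, aging and suppressed aging arrays (x axis, 1 pool of 30 blastocysts each), 1 panel per gene, 1 line per probe and bars for the spot error. The brighter Sirt7 probe stands at 3.68 on the young array and at 1.46 and 1.64 on the others, 1 of the 2 Sirt2 probes climbs to 3.06 on the suppressed aging array, and both Sirt1 probes are nearly flat.

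Sirt1, the nuclear deacetylase of p53, FoxO factors and histones, was the steadiest member. Probe A_55_P2030428 was at 1.83 on young, 2.02 on aging and 2.02 on suppressed aging. Probe A_55_P2598462 read 0.35, 0.40 and 0.56 in the same order. No Sirt1 difference in any of the 3 comparisons was larger than 0.21, close to its spot error of 0.20, and the fold was at most 1.16.

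Sirt6, a nuclear enzyme of chromatin known for DNA repair and telomere upkeep, had 2 probes that disagreed. Probe A_55_P2072468 read 1.75 on young, 1.76 on aging and 2.86 on suppressed aging, so young and aging lay together and suppressed aging stood higher. Probe A_51_P416215 read -0.04, 0.60 and -0.12, with the aging array the highest. Suppressed aging against aging, the first probe was 2.14-fold higher and the second 1.65-fold lower, and with normexp the first was under 2-fold, at 0.89. A gap of that size, 1.82, was reached by 7.35% of 4819 genes with 2 probes.

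Sirt2, the mainly cytoplasmic member known as a tubulin deacetylase, behaved in the same way at its probes. Probe A_52_P656024 was at 1.04 on young, 1.05 on aging and 3.06 on suppressed aging. Probe A_52_P547447 was at 1.54, 1.92 and 1.69. Young and aging could not be told apart at the first probe, with a difference of 0.01 against a spot error of 0.20, and suppressed aging was 4.03-fold higher than aging, a difference of 2.01. At the second probe suppressed aging was 1.17-fold lower than aging, a difference of -0.23 that is close to its spot error. The gap of 2.24 was reached by 3.94% of genes with 2 probes. The mean levels of both probes were nearly equal, so brightness does not set one above the other.

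In suppressed aging against aging blastocysts, 4 of 13 sirtuin probes were past 2-fold, 3 higher and 1 lower, where 19.0% of all 34752 probes compared were past it in either direction, 9.86% higher and 9.10% lower. Over the 29759 probes measured on both arrays, as all sirtuin probes were, the share was 14.7%. The sirtuin share was 30.8%, on only 13 probes, several of which share a gene. Of 2403 probes at a like level to the first Sirt2 probe, 0.916% were as far or farther up, and 3.70% were as far up as the first Sirt6 probe. Sirt4 gave the third higher probe and Sirt3 the lower one. The median difference of the 7 genes by their brightest probes was 0.17, beside -0.0034 over all genes. Sirt2 entered it through its first probe, whose mean level over the arrays was 1.7201 against 1.7176 at the second. On young and aging the second Sirt2 probe was the brighter, so the choice rested on the suppressed aging array. With the second Sirt2 probe in its place, at -0.23, the median would be the value of Sirt1, -0.0017. Only Sirt7 of the 5 genes with several probes had all of its probes on the same side of 0 in this comparison, at 0.17 and 0.27, both near the spot error. Sirt1 missed this only through its brightest probe at -0.0017, with the other at 0.16 and a spot error of 0.20. In aging against young, 4 of these 5 genes had all of their probes on the same side. The brightest probes of Sirt2 and Sirt6 were each only 0.01 above 0 there. Of all genes with 2 probes compared, 45.1% had their 2 brightest probes on opposite sides of 0 in suppressed aging against aging. In aging against young that share was 43.3%. These shares take 2 probes a gene, while the sirtuin counts take all probes, 3 for Sirt4. By its 2 brightest probes Sirt4 kept to 1 side of 0 in both comparisons. They were at 0.67 and 1.70 in suppressed aging against aging, and at -0.05 and -1.46 in aging against young.

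Sirt3, the main deacetylase of the mitochondrial matrix, had 1 probe, A_55_P2075140. It read -0.91 on young, -1.08 on aging and -2.16 on suppressed aging. Young and aging differed by less than the spot error of 0.21, and suppressed aging was 2.11-fold lower than aging and 2.37-fold lower than young. At its low level such a difference is common, and 11.2% of 4562 probes at a like level were as far down against aging. With the normexp background correction the Sirt3 differences were -0.27 and -0.45, both under 2-fold.

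Sirt4, a mitochondrial member known for restraining glutamate dehydrogenase, had 3 probes that moved by unlike amounts. Probe A_51_P424641, the brightest, read -0.41, -0.46 and 0.20 on young, aging and suppressed aging, and the last was 1.59-fold higher than aging. Probe A_55_P2185372 read -1.07, -2.53 and -0.83, so that aging alone was low, 2.75-fold under young and 3.25-fold under suppressed aging, but under 2-fold in both with normexp, at -0.69 and 0.68. Probe A_66_P134658 was near the detection limits of the arrays, at -3.82, -3.32 and -3.41, and its differences were within 0.50 with spot errors of up to 0.41. No array was lowest at all 3 probes. The first 2 probes had the same order, suppressed aging highest and aging lowest, but the first differed by only -0.05 in aging against young. At all 3 probes suppressed aging was above young, by 0.61, 0.24 and 0.41, with spot errors of 0.21, 0.21 and 0.41. With normexp these differences were 0.40, -0.01 and 0.14, so the shared direction did not hold.

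Sirt5, the mitochondrial enzyme that removes succinyl and malonyl groups, was read by 1 dim probe, A_51_P411909. It was at -2.55 on young, -3.25 on aging and -3.43 on suppressed aging. Aging and suppressed aging differed by less than the spot error of 0.34, and aging was 1.63-fold and suppressed aging 1.84-fold lower than young. Neither passed 2-fold, and with normexp the differences were -0.30 and -0.21.

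**Figure D2:**
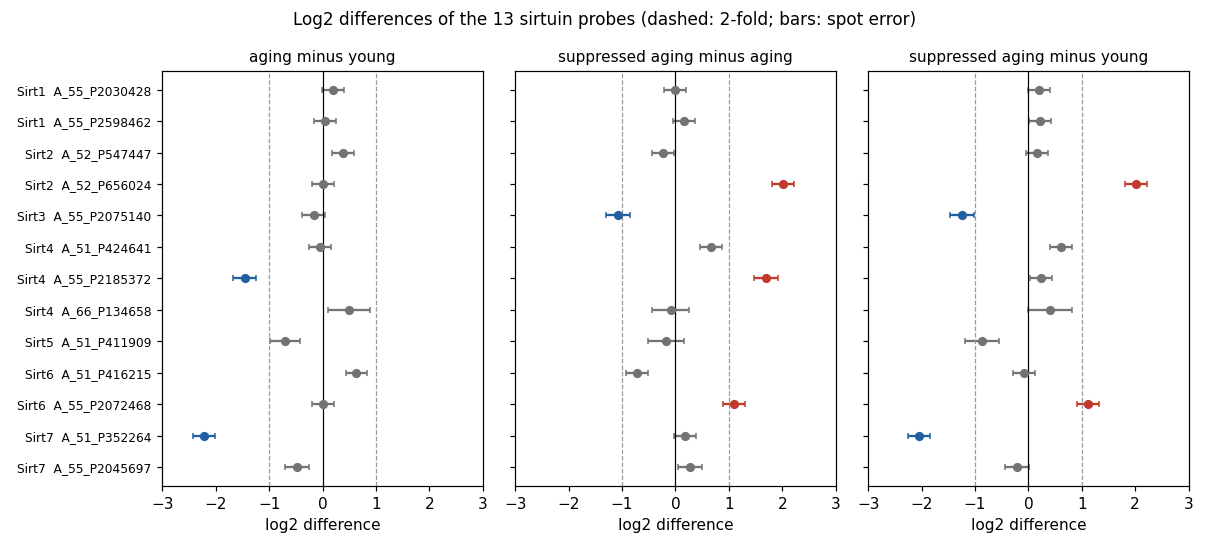
Log2 difference (x axis) of each of the 13 sirtuin probes (y axis) in aging minus young, suppressed aging minus aging and suppressed aging minus young, with bars for the spot error and dashed lines at 2-fold. Red points are higher and blue points lower by over 2-fold, 2 probes in the first comparison and 4 in each of the others, and the second probe of Sirt2, Sirt6 and Sirt7 lies inside the dashed lines.

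Suppressed aging against young, which shares its arrays with both comparisons above, held 4 of 13 probes past 2-fold, 2 higher and 2 lower, where 18.1% of all 34959 probes were past it, 8.88% higher and 9.19% lower, and 14.2% of those measured on both arrays. The higher probes were those of Sirt2, at 2.02 or 4.06-fold, and Sirt6, at 1.11 or 2.16-fold. The lower ones were those of Sirt7, at -2.05, and Sirt3, at -1.25. No sirtuin probe passed 5-fold in any of the 3 comparisons, where 3.00%, 2.55% and 2.51% of all probes did. Over all 13 probes the median size of the difference, in either direction, was 0.39 in aging against young, 0.27 in suppressed aging against aging and 0.41 in suppressed aging against young, beside 0.46, 0.42 and 0.40 over all probes. The values over all probes include bounds, while every sirtuin difference was measured on both arrays, so the sets are unlike.

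**Figure D3:**
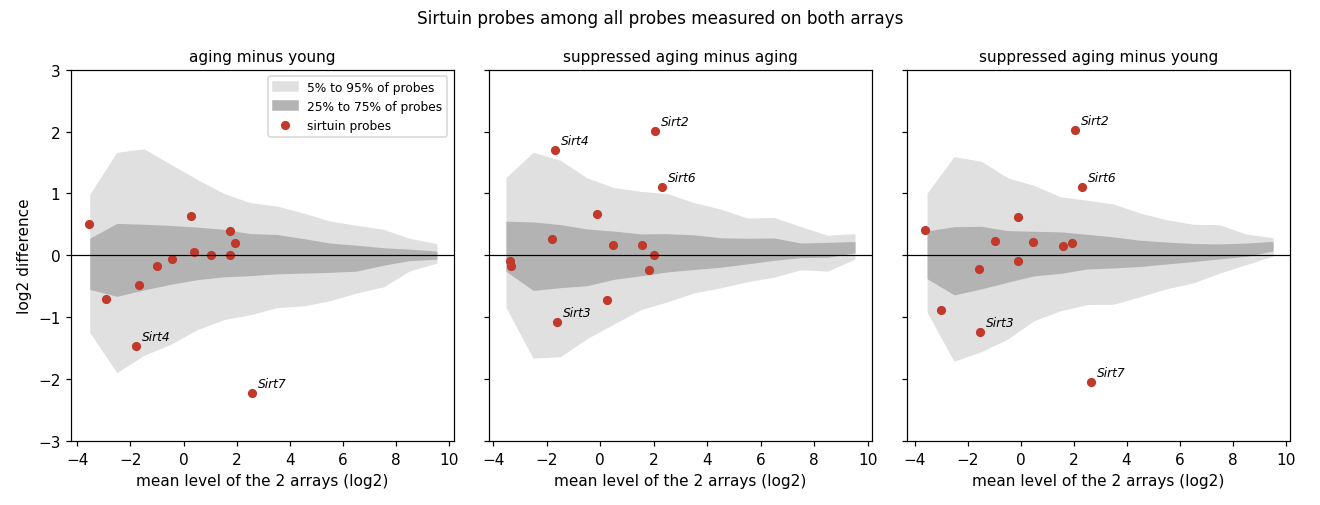
Log2 difference (y axis) of the sirtuin probes (red points) against the mean level on the 2 arrays compared (x axis, log2), over bands that hold the middle 25% to 75% and 5% to 95% of all probes measured on both arrays, in steps of 1 log2 unit of level. Above the lowest step the bands narrow as levels rise. The brighter Sirt7 probe at -2.22 and the Sirt2 probe at 2.01 lie outside them, and the Sirt3 probe lies inside. In suppressed aging minus aging the Sirt6 probe at 1.10 and the Sirt4 probe at 1.70 also lie outside.

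The enzymes that make NAD+, the cosubstrate of all sirtuins, were read for 12 genes. By the brightest probe, 19.0% of all genes were past 2-fold in aging against young, 17.3% in suppressed aging against aging and 16.3% in suppressed aging against young, which is the background for this list and those that follow. Between young and aging, 7 of 12 were higher and 5 lower, 0 higher and 2 lower by over 2-fold, with a median of 0.08. Nmnat2, a cytoplasmic enzyme of the last step of NAD+ synthesis, was at 2.23 on young, -0.89 on aging and -1.94 on suppressed aging, a difference of -3.12 in aging and the lowest of the list. Only 1 of the 2 Nmnat2 probes was above background on both arrays in each comparison, so no second probe could be set beside it. Slc25a51, the mitochondrial NAD+ carrier, was the highest in aging at 0.51. In suppressed aging against aging, 1 gene was higher and 2 lower by over 2-fold with a median of 0.05, from Nmnat1, the nuclear enzyme of the last step, at 1.60 to Nmrk1, a nicotinamide riboside kinase, at -1.12. Against young, Nmnat1 and Nmnat2 were again the ends of the list, at 1.89 and -4.17. Nampt, which makes the rate-limiting step of the salvage route and was chosen for mention after its values were seen, read 1.09, 0.96 and 1.85, higher on the suppressed aging array by 0.89 against aging, under 2-fold.

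Of 9 genes whose products spend NAD+ in other ways, 7 could be compared and Parp3 and Bst1 were not above background on any array. Aging levels were above young levels for 6 of 7 (median difference 0.18), and suppressed aging levels were above aging levels for 1 of 7 (median -0.34). Cd38, an ecto-enzyme that breaks down NAD+, was at -1.52, -0.14 and -0.67 on young, aging and suppressed aging, and its 1.38 in aging was the highest of the list. Parp2, a polymerase of DNA repair, ran the other way at 3.61, 2.50 and 3.71, with differences of -1.11 and 1.21, and its second probe took the same directions at -0.62 and 0.57. The lowest in suppressed aging against aging was Tnks, a tankyrase, at -0.85, while its other probe was at 0.26. Against young the ends were Cd38 at 0.85 and Nnmt, which methylates nicotinamide, at -0.30.

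Among 9 regulators of Sirt1, 8 could be compared, and Hic1, a repressor of Sirt1 transcription, was not above background. Aging levels were above young levels for 5 of 8, none past 2-fold (median difference 0.47), from Elavl1, an RNA-binding protein that binds the Sirt1 mRNA, at 0.997 to Usp22, a deubiquitinase that acts on Sirt1, at -0.47, whose other probe was at 0.75. Prkaa2, a catalytic subunit of AMPK, was the highest in suppressed aging against aging at 1.64, but its other probe was at -0.26. Elavl1 was the lowest there at -0.45. Against young the list ran from Prkaa2 at 1.28 to Ctbp1, a transcriptional corepressor, at -0.43.

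Nuclear substrates and partners of sirtuins numbered 14, of which 13 could be compared. Of these, 9 stood higher in aging than in young (median difference 0.14) and 2 were lower by over 2-fold, 1 of them only as a bound, and 5 stood higher in suppressed aging than in aging (median -0.31). Stat3, a transcription factor of cytokine signalling, was the lowest in aging at -1.53, with levels of 7.37, 5.84 and 6.51 on young, aging and suppressed aging, and its other probe differed by -0.13. Ep300, a histone acetyltransferase, was the highest in aging at 0.79, with its other probe at -0.37. Foxo1, a transcription factor of the insulin pathway, was the lowest in suppressed aging against aging at -0.81, with its other probe at -0.10, and Stat3 the highest at 0.67, with its other probe at 0.78. Against young Nr1h3, a sterol-sensing nuclear receptor, was the highest at 0.50 and Stat3 the lowest at -0.86, with the other Stat3 probe on the other side of 0 at 0.65. These are the ends of the list by brightest probes only. The other Nr1h3 probe was at 2.72 in suppressed aging against aging.

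Mitochondrial substrates numbered 15. From young to aging, 4 of 14 compared were higher and 10 lower (median difference -0.08), and from aging to suppressed aging the split was 7 and 7 (median -0.05). Sod2, the matrix superoxide dismutase that Sirt3 activates, read 3.15, 4.07 and 3.63 and was the highest in aging at 0.92. Glud1, glutamate dehydrogenase, was the lowest there at -0.79, but its other probe was at 0.27. Idh2, the NADP-dependent isocitrate dehydrogenase that Sirt3 deacetylates, was the lowest in suppressed aging at -0.66 against aging and -0.93 against young, and its other probe gave -0.51 and -0.58. Acadvl, an enzyme of fatty acid oxidation, was the highest in both at 0.94 and 0.85. By its brightest probe, no gene of this list that was above background on both arrays passed 2-fold. Other probes did for Mlycd, at -1.30 in suppressed aging against aging, and for Glud1, at 1.01 in suppressed aging against young. Cps1, the first enzyme of the urea cycle and named here after its values were seen, was above background on the suppressed aging array alone and gave bounds of 2.61 against aging and 2.49 against young.

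**Figure D4:**
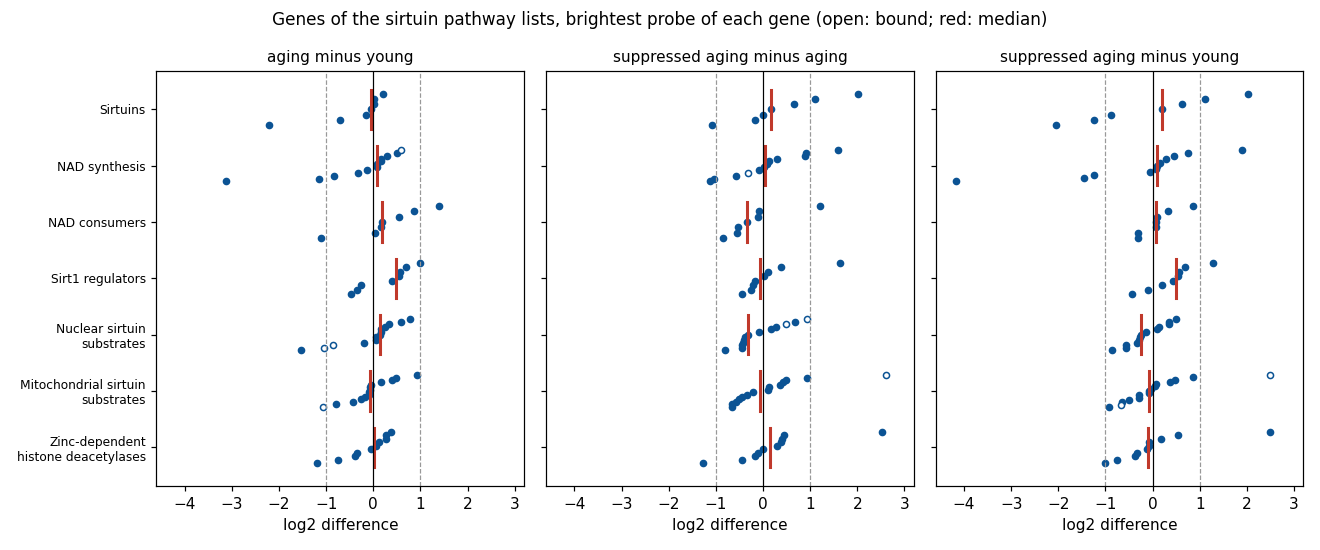
Log2 difference (x axis) of each gene of the sirtuin family and its pathway lists (y axis, brightest probe of a gene) in aging minus young, suppressed aging minus aging and suppressed aging minus young, with open points for bounds, red marks for the median of a list and dashed lines at 2-fold. Medians lie between -0.34 and 0.49, and the farthest gene above background on both arrays is Nmnat2 at -3.12 and -4.17.

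The 3 genes whose levels over the 3 arrays lay nearest to those of the brighter Sirt7 probe, after each gene's mean was taken off, were Ak6, a nuclear adenylate kinase, at 3.44, 1.20 and 1.43, Gm9258 at 0.93, -1.27 and -1.02, and Dnajc1, a co-chaperone of the endoplasmic reticulum, at 2.00, -0.12 and -0.05. Their root mean square distances were 0.02, 0.04 and 0.05, and 10 of 13810 genes lay within 0.1. The likeness rests on 3 arrays and says nothing of a shared role.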

How the data were processed

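Each of the 3 samples was hybridised to 1 Agilent 1-colour mouse array. The deposited scanner files hold intensity values (processed signal, background-subtracted by the authors with Agilent Feature Extraction 12.0.3.1 per the submitters' processing notes). The amplification is described in different ways: the methods name a global PCR with a single primer, the labels a low-input cRNA labelling kit. The authors' own table, also intensity, is a multiple of the same values and served as an alternative.

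Levels were log2 intensity minus the log2 of the array's 75th percentile. Control spots and outlier flags were left out, spots of a probe were averaged, and 56591 probes remained, of which 33759 were named through their RefSeq accession. Above background was the scanner's own call. A probe above background on 1 of 2 arrays gave a bound against the dim array's detection limit, and one above background on neither gave no difference. A gene was given by its brightest probe. Promoter windows were those of RefSeq, 9 windows for the 7 genes. With 1 array a group the number of arrays limits the precision, and no test was run. Named genes were all sirtuin probes, the highest and lowest gene of each pathway list among those above background on both arrays, and the 3 genes nearest in pattern to the sirtuin with the widest range. The members and lists were chosen with earlier results of these data known. The values of 1 gene of the lists are not reported here. Alternatives were normexp (limma 3.58.1, offset 50, R 4.3.3), other scalings, other background filters, the mean over probes, a 5-fold threshold and the authors' values. Python 3.11.15, NumPy 2.4.6, pandas 2.3.3 and Matplotlib 3.10.9 were used.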

Additional observations from a re-analysis of the deposited data

How the results depend on the processing

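All sirtuin probes were above background, so the filters on dim probes returned the reported values by construction, and the centrings and the authors' values shift all probes of an array alike. The normexp correction was thus the main alternative that could end a call at a given probe, and with it the called Sirt7 probe was at -2.01 in aging against young and the Sirt2 probe at 1.77 in suppressed aging against aging. With this correction, whose offset of 50 pulls dim probes toward each other, the sirtuin probes past 2-fold fell to 1 in aging against young, and to 1 probe and 1 gene in suppressed aging against aging and 2 probes and 2 genes in suppressed aging against young, while the share of all probes past 2-fold fell to 4.52%, 3.83% and 3.85%. The probes that dropped under 2-fold there were those of Sirt3 at -0.27 against aging and -0.45 against young, Sirt4 at -0.69 and 0.68, and Sirt6 at 0.89 against aging and 0.98 against young. With the probes of a gene averaged, 1 sirtuin gene was past 2-fold in suppressed aging against aging, and at 5-fold 0 genes and 0 probes were past it in each comparison. An alternative chosen after seeing the data took the second brightest probe: in suppressed aging against aging Sirt2 turned to -0.23, Sirt6 to -0.72 and the median of the family to -0.17, and in suppressed aging against young Sirt6 turned to -0.084, the median became -0.084 and 1 gene was past 2-fold. The cause of the disagreement between probes was not tested. Single-gene and single-probe values under an alternative numbered 522, and 132 of them equalled the reported value by construction. A further 344 moved by less than 0.2055, a median spot error used for all values, and 43 by more. The 3 that had been past 2-fold and changed sign all came from the second brightest probe. Outside that setting and the averaged probes, gene values repeat those of the brightest probe, so these counts are not of separate values. No paired analysis was possible because no condition was measured on more than 1 array, which also left no replicate to leave out. The signal over background limits the values of Sirt5 and of the dimmest Sirt4 probe.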

Other observations

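The zinc-dependent histone deacetylases, which take acetyl groups off lysines as sirtuins do but without NAD+, were read for 11 genes, of which Hdac11 was not above background on any array. From young to aging, 5 of 10 were higher and 5 lower (median difference 0.01), and 1 was lower by over 2-fold. That gene was Hdac2, a class I enzyme of corepressor complexes, at 2.17 on young, 0.97 on aging and 1.42 on suppressed aging, a difference of -1.20, and Hdac5, a class IIa enzyme, was the highest by brightest probes at 0.37, while the other probe of Hdac3, also a class I enzyme, was at 1.40 against -0.38 at its brightest. In suppressed aging against aging the median was 0.15, Hdac8, the class I enzyme of cohesin, was the highest at 2.53, and Hdac10, a polyamine deacetylase, was the lowest at -1.27. Hdac8 read -3.20, -3.25 and -0.72, so young and aging lay together and suppressed aging stood apart, as at the first probes of Sirt2 and Sirt6. Unlike those probes, Hdac8 was dim on young and aging, where the detection limits were -4.20 and -4.32. Hdac10 was also dim, at -2.45, -2.18 and -3.46. In suppressed aging against young the median was -0.10, with Hdac8 at 2.49 and Hdac10 at -1.01. Hdac2, Hdac5, Hdac8 and Hdac10 each had 1 probe measured, so no second probe could be set beside them.

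Of 10 oocyte genes, 6 passed background in young, 7 in aging and 5 in suppressed aging blastocysts, and of 6 blood cell genes 3, 3 and 2 were. All 15 housekeeping genes were above background on each array, and their summed level was 1500, 1501 and 1489 on young, aging and suppressed aging in units of the array's 75th percentile.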
